A study of Rattus norvegicus with 8 samples.

Results

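Axon guidance ligands and receptors were followed in the medial thalamus of rats. They were taken as every gene on the array whose name begins with Sema, Plxn, Epha, Ephb, Efna, Efnb, Slit, Robo or Unc5, together with Nrp1, Nrp2, Dcc, Ntn1, Ntn2 and Ntn4, leaving out Slitrk genes. This rule matched 94 probes of 64 gene names among the 41012 distinct probes of the array. A probe was kept where at least 4 of the 8 arrays had it well above background, which left 52 of these genes, among 11867 named genes and 27161 probes of the whole array. One of the 52, Unc50, shares only its first letters with the netrin receptors and differed by -0.02 (SE 0.11), so the counts that follow are over the other 51. Each gene is given by its brightest kept probe.

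The animals were conscious male Sprague-Dawley rats, in groups of 4. Occlusion rats underwent daily sessions for 10 days in which the airway was blocked at the trachea for 3 to 10 breaths at a time, with about 30 s of recovery between trials. Surgical control rats had daily sessions without occlusions over the same 10 days. All were killed by an overdose of anesthetic, the occlusion rats within 10 min of the last trials, and total RNA of each medial thalamus went on 1 single-colour Agilent array. The comparison asks which guidance transcripts differ after such conditioning. The labels do not give the ages of the animals.

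Axon guidance molecules steer growing axons by attraction or repulsion. Semaphorins act through plexins, with neuropilins as co-receptors for most secreted class 3 members. Ephrins are membrane-bound ligands of Eph receptor tyrosine kinases, A-type ephrins being held by a lipid anchor and B-type ephrins crossing the membrane. Slits are secreted repellents read by Robo receptors, and netrins attract through Dcc and repel through Unc5 receptors. In the embryonic mouse, ephrin-A and EphA gradients help order the axons that run from thalamus to cortex, and in the adult brain many of these molecules remain at synapses and in glia.

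The share of spots well above background ran from 65.0% to 71.6% over the arrays, and 1.05% to 1.55% of spots were saturated. The arrays lay on 2 slides, each holding 2 arrays of either group, and slide 1 and slide 2 parted along the first principal component (37.7% of the variance). Each slide was scanned on its own, so slide and scan are 1 batch, and differences within each slide are given beside the pooled ones. The tissue label was checked against thalamic relay neuron markers, and 10 of the 11 on the array were kept, among them Slc17a6, the vesicular glutamate transporter of subcortical neurons, and Prkcd, a kinase abundant in thalamic relay cells. Their mean level ran from 0.97 to 1.48 on occlusion arrays (log2, relative to each array's 75th percentile, the scale of every level below). On control arrays it was 0.83, -0.03, -0.07 and 1.09 for replicates 1 to 4. By this mean controls 2 and 3 stood apart from the other 6 arrays, and both lie on slide 2. Other markers set them apart from each other: the mean of 6 habenula markers was -0.11 on control 2 and -4.93 on control 3. On occlusion arrays that habenula mean ran from -3.48 to -0.72. The mean of 8 hypothalamus markers ran from -2.62 to 1.51 on occlusion arrays and from -2.70 to 0.82 on control arrays. All 10 relay markers had positive differences, with a median of 0.66. Spots of Slc17a6 were saturated on 4 occlusion and 2 control arrays, and those of Prkcd on 3 and 1. Calb2, also among the 10, was saturated on 4 and 4, so levels of these genes are partly at the ceiling. All 9 markers of inhibitory neurons and the reticular nucleus had negative differences, with a median of -1.17 and array means of -1.78 to -0.08 on occlusion arrays, against -0.26 to 1.11 on control arrays. Of 13 oligodendrocyte markers 11 were lower on occlusion arrays, with a median of -0.42. The array means of the 10 of them with a value on every array, which leaves out Mbp, Mobp and Cnp, were 1.34 to 1.98 on occlusion arrays, against 1.75 to 2.52 on control arrays. Mbp was one of the 2 that were higher, by 0.31 (SE 0.11). The part of these markers in the differences below was not tested. In tissue RNA, fewer cells of a type and less RNA per cell cannot be told apart.

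No axon guidance gene passed the test between occlusion and control arrays. In limma's fit 0 of the 51 had a Benjamini-Hochberg adjusted p under 0.05, the lowest being 0.403, and 0 of all 27161 probes (0%) passed. At an unadjusted p under 0.05 there were 12 of 51 (23.5%), against 11.1% of all probes. Of these, 9 were higher on occlusion arrays (17.6%, against 6.48% of all probes) and 3 were lower (5.88%, against 4.61%). The higher ones were Sema4g, Sema7a, Slit3, Epha3, Epha6, Unc5c, Plxnd1, Efna3 and Sema6b, and the lower ones Ephb1, Sema3b and Sema3f. Among them, Epha3 was well above background on 4 occlusion arrays but only 1 control array, so it entered through the group in which it is higher. When controls 2 and 3 were left out, a choice made after their relay markers were seen, only controls 1 and 4 remained, both on slide 1. Occlusion arrays of both slides then face controls of slide 1 alone, so group and slide are partly confounded in that setting throughout. In it 4 of 51 members were at an unadjusted p under 0.05 (7.84%, against 4.34% of all probes). They were Ephb1, Plxnd1 and Sema3f, 3 of the 12, and Efnb1. All of the 12 kept their sign, but they were picked on arrays that this setting shares. Without occlusion 1 there were 6 members at an unadjusted p under 0.05 (11.8%, against 7.53% of all probes), and without control 2 there were 7 (13.7%, against 7.56%).

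The members as a whole lay close to the rest of the array. Differences, occlusion minus control, were positive for 28 of 51 (54.9%), against 53.6% of all probes, and their median was 0.030, against 0.021 over all probes. Without controls 2 and 3 the count was 24 of 51 and the median -0.0089. Groups did not overlap for 4 members (7.84%), against 6.72% of all probes. Sema4g, Slit3 and Epha3 were higher on every occlusion array than on any control array with a value (3 members, 5.88%, against 3.9% of all probes). Sema4g had no value on control 4, and Epha3 had control signals near background as above. Sema3f was lower on every occlusion array than on any control array (1 member, 1.96%, against 2.82%). Ligands had a median difference of -0.0086 over 26 genes, 12 of them higher. Receptors had a median of 0.11 over 25 genes, 16 of them higher.

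**Figure D1:**
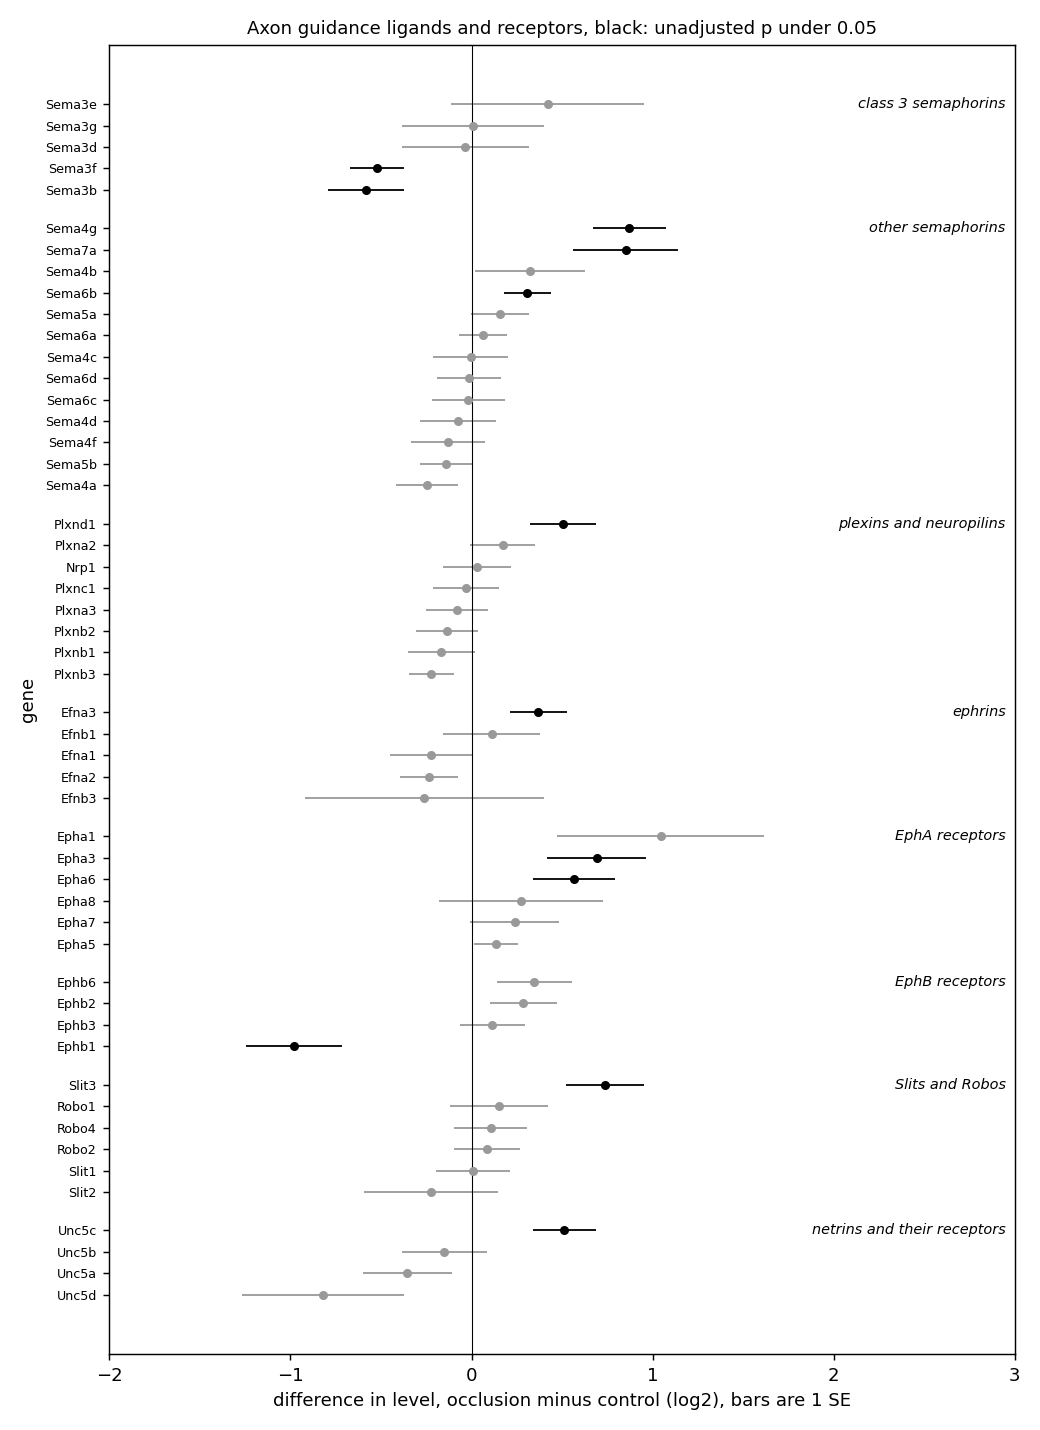
Difference in log2 level, occlusion minus control, of the 51 axon guidance genes (horizontal axis), grouped by role, with bars of 1 SE and 4 arrays in each group (3 control arrays for Sema4g). Black marks the 12 genes with an unadjusted p under 0.05, and all 6 EphA receptors lie right of 0.

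Of 7 class 3 semaphorins on the array, 5 were kept, 2 with positive and 3 with negative differences (median -0.03). Sema3f, a secreted repellent that acts through neuropilin-2 and plexin-A receptors, had levels of -2.25, -2.07, -1.74 and -1.9 on occlusion arrays, against -1.39, -1.23, -1.58 and -1.66 on control arrays. Every occlusion array lay below every control array, and the margin between the closest arrays was small. The difference was -0.52 (SE 0.15, 1.44-fold lower, adjusted p = 0.403), with -0.47 within slide 1, -0.58 within slide 2, and -0.46 without controls 2 and 3. The probe behind these values is shown because it is the one member that separated the groups downward. It is 60 bases long and aligns to chr8:112953861-112954207 of rat assembly rn3 on the minus strand, a span of 347 bases, so its bases come from separate stretches of the genome.
Sema3f probe: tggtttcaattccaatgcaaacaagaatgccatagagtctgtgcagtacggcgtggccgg

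Sema3b, another secreted class 3 member, had levels of -1.57, -1.14, -1.39 and -1.48 on occlusion arrays, against -0.97, -0.35, -0.62 and -1.30 on control arrays. Control 4 fell among the occlusion arrays, so the groups overlapped. The difference was -0.58 (SE 0.21, 1.5-fold lower, adjusted p = 0.406), -0.35 within slide 1, -0.82 within slide 2, and -0.26 without controls 2 and 3. A second Sema3b probe gave -0.55 (SE 0.23). Sema3e, the ligand of plexin D1, differed by 0.42 (SE 0.53) and was well above background on 2 occlusion and 2 control arrays, the fewest the filter admits. The remaining 2 class 3 genes differed by -0.03 and 0.0080.

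All 13 semaphorins of the other classes were kept, 6 with positive and 7 with negative differences (median -0.0049). The number with positive differences was 9 when arrays were scaled to the median of kept probes and 8 under quantile normalization. Sema4g, a transmembrane semaphorin, had levels of 1.65, 1.14, 1.21 and 1.5 on occlusion arrays, against 0.86, 0.44 and 0.21 on controls 1, 2 and 3. The spot on control 4 carried an outlier flag and was left out of the fit. All 4 occlusion arrays lay above the 3 control arrays. The difference was 0.87 (SE 0.20, 1.83-fold, adjusted p = 0.403), 0.57 within slide 1 and 1.0 within slide 2, where the controls are 2 and 3. Without those controls the difference was 0.51 against the lone control 1. A second Sema4g probe, with a value on all 8 arrays, gave 0.49 (SE 0.24), and by it the groups overlapped. On that probe control 4 was at -3.37 and occlusion 4 at -3.53.

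Sema7a, a lipid-anchored semaphorin that binds integrins and plexin C1 and promotes axon growth, had levels of -0.63, -1.08, -1.29 and -1.76 on occlusion arrays, against -1.54, -1.97, -2.66 and -2.0 on control arrays. Only occlusion 4 reached into the range of the controls. The difference was 0.85 (SE 0.29, 1.80-fold, adjusted p = 0.403), nearly alike within slide 1 (0.80) and slide 2 (0.90), and 0.58 without controls 2 and 3. Its probe aligns to chr8:61753755-61753814 (rn3, plus strand) and is shown as the sequence behind one of the larger differences that both slides share.
Sema7a probe: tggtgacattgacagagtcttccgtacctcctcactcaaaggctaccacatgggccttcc

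Sema6b, a transmembrane ligand of plexin-A receptors, had levels of 1.98, 2.03, 2.17 and 1.81 on occlusion arrays, against 1.68, 1.62, 1.52 and 1.94 on control arrays. Control 4 lay within the occlusion range. The difference was 0.31 (SE 0.13, 1.24-fold, adjusted p = 0.439), with 0.26 within slide 1, 0.35 within slide 2, and 0.19 without controls 2 and 3. The other 10 genes of this group differed by -0.24 to 0.32. Among them, Sema6a gave different answers by probe: its brightest probe differed by 0.06 (SE 0.13), and 3 further probes by -0.0082, 0.34 and 0.10.

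Of 10 plexins and neuropilins on the array, 8 were kept, 3 with positive and 5 with negative differences (median -0.06). Plxnd1, the receptor of Sema3e, had levels of 0.70, 0.14, 0.64 and 0.47 on occlusion arrays, against -0.02, -0.41, 0.28 and 0.08 on control arrays. Occlusion 2 lay below control 3, and the other occlusion arrays lay above all controls. The difference was 0.51 (SE 0.18, 1.42-fold, adjusted p = 0.406), larger within slide 1 (0.64) than within slide 2 (0.37), and 0.46 without controls 2 and 3. A second Plxnd1 probe gave 0.14 (SE 0.24). Plxnb3, a receptor of Sema5a, differed by -0.22 (SE 0.13), and Plxna2, a receptor of Sema6a, by 0.17 (SE 0.18). The other 5, Nrp1 among them, lay between -0.17 and 0.03. Nrp2, which pairs with plexins to receive Sema3f, was well above background on none of the 8 arrays.

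**Figure D2:**
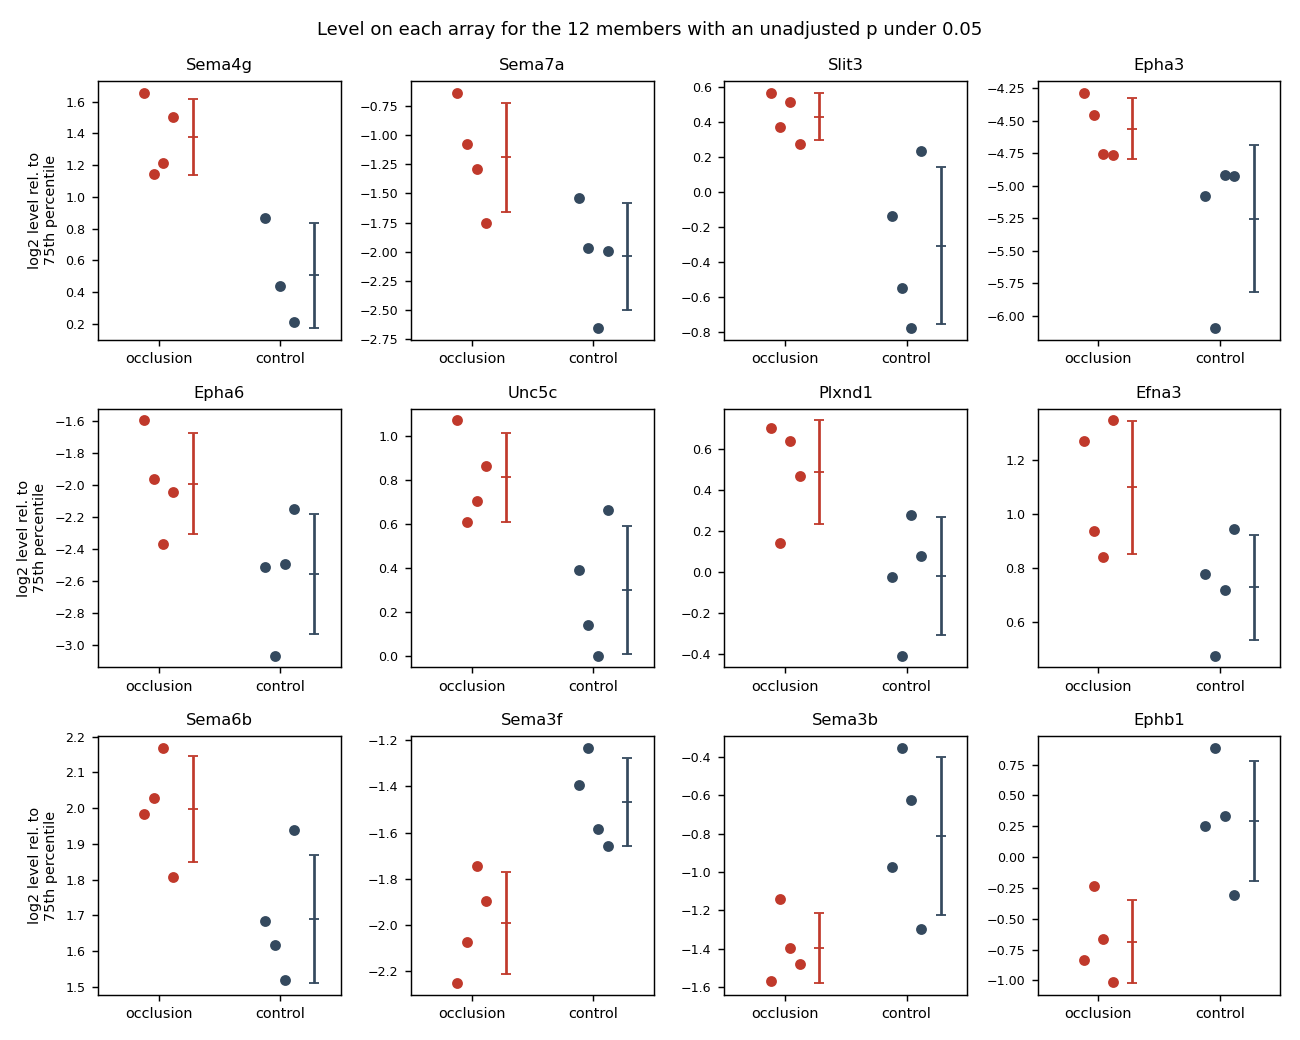
Log2 level relative to each array's 75th percentile (vertical axis, own scale in each panel) of the 12 genes with an unadjusted p under 0.05, in occlusion arrays (left, red) and control arrays (right, blue). Points are arrays in order of replicate number, bars are the mean ± 1 SD, and Sema4g has 3 control values. The groups do not overlap for Sema4g, Slit3, Epha3 and Sema3f.

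Of 8 ephrins on the array, 5 were kept, 2 with positive and 3 with negative differences (median -0.22). Efna3, an A-type ephrin, had levels of 1.27, 0.94, 0.84 and 1.35 on occlusion arrays, against 0.78, 0.48, 0.72 and 0.95 on control arrays. Only control 4 lay above any occlusion array. The difference was 0.37 (SE 0.16, 1.29-fold, adjusted p = 0.442), with 0.19 within slide 1, 0.54 within slide 2, and 0.24 without controls 2 and 3. A second Efna3 probe gave 0.52 (SE 0.20). Efna1 and Efna2, also A-type ephrins, differed by -0.22 (SE 0.23) and -0.24 (SE 0.16). The 2 B-type ephrins differed by 0.11 for Efnb1 and -0.26 for Efnb3. Without controls 2 and 3 the difference of Efnb1 was 0.58 (unadjusted p = 0.0198, adjusted p = 0.928). Within slide 1 it was 0.38 and within slide 2 -0.16.

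The rule did not match Epha4 and Epha10, which are given below, and Epha10 was lower. The EphA receptors that it matched were the group in which every kept gene had a positive difference. These were 6 of 6 with a median of 0.42, against 53.6% and 0.021 over all probes. That held for quantile normalization, for scaling to the median of kept probes and for normexp background correction, which gave a median of 0.22. Without control 3 it was 5 of 6, and without controls 2 and 3 it was 4 of 6 with a median of 0.06. Epha3, a receptor of A-type ephrins, had levels of -4.28, -4.45, -4.75 and -4.76 on occlusion arrays, against -5.07, -6.09, -4.91 and -4.93 on control arrays. The groups did not overlap, but the probe was not well above background on 3 of the 4 control arrays, which leaves the size of the difference uncertain, and control 2 lay far below the rest. The measured difference was 0.69 (SE 0.27, adjusted p = 0.426), with 0.48 within slide 1, 0.90 within slide 2, and 0.44 without controls 2 and 3. With normexp background correction it was 0.25. The probe, which carries the third upward separation, aligns to chr11:696219-696278 (rn3, minus strand).
Epha3 probe: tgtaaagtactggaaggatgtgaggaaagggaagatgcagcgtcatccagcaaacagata

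Epha6, a related receptor, had levels of -1.6, -1.96, -2.37 and -2.04 on occlusion arrays, against -2.51, -3.07, -2.50 and -2.15 on control arrays. Control 4 lay above occlusion 3, and the other controls lay below all occlusion arrays. The difference was 0.56 (SE 0.23, 1.48-fold, adjusted p = 0.428), with 0.35 within slide 1, 0.78 within slide 2, and 0.34 without controls 2 and 3. A second Epha6 probe, which starts 904938 bases away in rn3, gave 0.48 (SE 0.20). The brightest probe spans 1606 bases at chr11:41514444-41516049 (rn3, plus strand) and is shown because probes so far apart gave like values.
Epha6 probe: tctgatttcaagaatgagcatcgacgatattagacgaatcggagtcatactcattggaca

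Epha1 had the most positive difference of the 51 genes, 1.04, but with an SE of 0.57. Its levels were -2.92, -2.66, -2.81 and -2.96 on occlusion arrays, against -2.54, -4.79, -5.23 and -2.97 on control arrays. Controls 2 and 3 alone were low, and controls 1 and 4 lay at the level of the occlusion arrays. Within slide 1 the difference was -0.11, within slide 2 it was 2.20, and without controls 2 and 3 it was -0.08. The other Epha1 probes gave 0.54 (SE 0.43) and 0.57 (SE 0.40), both larger within slide 1 (0.85 and 1.03) than within slide 2 (0.23 and 0.12). The 3 remaining EphA genes differed by 0.14 to 0.27. Epha4, the EphA receptor that also binds B-type ephrins, carries another name in the array files and so was not matched by the rule. Its 3 probes differed by 0.69 (SE 0.20), 0.40 (SE 0.32) and 0.66 (SE 0.23), and the first did not overlap between the groups (adjusted p = 0.403). The second is the brightest, with means of 2.83 on occlusion and 2.43 on control arrays, and by it the groups overlapped. In the same order the 3 probes differed by 0.41, 0.28 and 0.41 without controls 2 and 3. Epha10, found in the same way, differed by -0.39 (SE 0.18). It was at -0.39 within slide 1, -0.39 within slide 2, and -0.44 without controls 2 and 3.

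All 4 EphB receptors were kept, 3 with positive differences and 1 with a negative one (median 0.20). Ephb1, a receptor of B-type ephrins that in the mouse turns retinal axons back at the optic chiasm, had the most negative difference of the 51 genes. Its levels were -0.84, -0.23, -0.66 and -1.01 on occlusion arrays, against 0.25, 0.88, 0.34 and -0.30 on control arrays. Occlusion 2 and control 4 overlapped by a narrow margin, and the other arrays were separate. The difference was -0.98 (SE 0.26, 1.97-fold lower, adjusted p = 0.403), with -0.73 within slide 1, -1.23 within slide 2, and -0.66 without controls 2 and 3. A second Ephb1 probe gave -0.69 (SE 0.30). Ephb6, a member of the family whose kinase domain is inactive, differed by 0.35 (SE 0.21), with -0.05 within slide 1 and 0.74 within slide 2. Ephb2 differed by 0.29 (SE 0.18). Without controls 2 and 3 only 1 of the 4 EphB genes had a positive difference, Ephb2 at 0.07, and Ephb6 was at -0.0041.

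**Figure D3:**
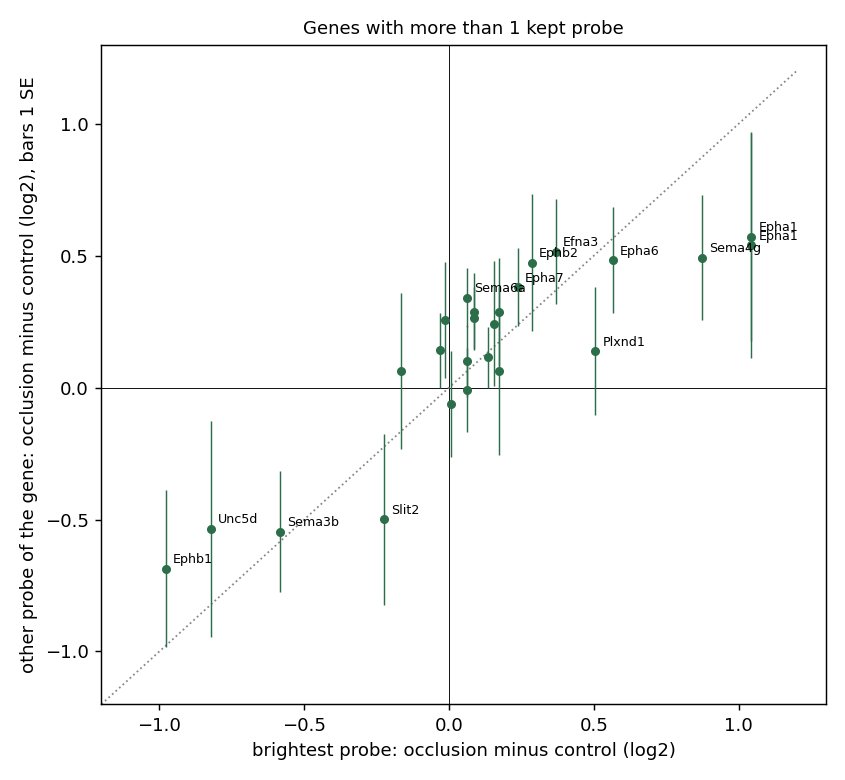
Difference in log2 level, occlusion minus control, by the brightest probe (horizontal axis) and by each further kept probe of the same gene (vertical axis, bars of 1 SE), for 20 genes with 25 further probes. The dotted line marks equal values. Of the 25 further probes, 20 have the sign of the brightest one, and those of Ephb1, Sema3b and Unc5d are negative like it.

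Of 7 Slits and Robos on the array, 6 were kept, 5 with positive differences and 1 with a negative one (median 0.10). Slit3, a secreted ligand of Robo receptors, had levels of 0.57, 0.37, 0.51 and 0.27 on occlusion arrays, against -0.13, -0.55, -0.78 and 0.23 on control arrays. Every occlusion array lay above every control array, with control 4 just below occlusion 4. The difference was 0.74 (SE 0.22, 1.67-fold, adjusted p = 0.403), with 0.49 within slide 1, 0.98 within slide 2, and 0.38 without controls 2 and 3. The group means were 0.43 ± 0.13 on occlusion arrays and -0.31 ± 0.45 on control arrays (SD, n = 4 each). The probe that separated the groups aligns to chr10:20577428-20577487 (rn3, plus strand).
Slit3 probe: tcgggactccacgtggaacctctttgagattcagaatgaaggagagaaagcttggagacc

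Slit2, its close relative, differed by -0.22 (SE 0.37), ranging from 0.76 to 1.82 on occlusion arrays and from 0.83 to 2.33 on control arrays. Robo1, a Slit receptor, differed by 0.15 (SE 0.27), with -0.27 within slide 1, 0.58 within slide 2, and -0.13 without controls 2 and 3. The other 3 genes of the group, Robo4 of blood vessels among them, differed by 0.0075 to 0.11. Of the 6 genes, 3 had positive differences without controls 2 and 3.

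Of 7 genes counted with netrins and their receptors, 4 were kept, all of them Unc5 receptors, 1 with a positive and 3 with negative differences (median -0.25). Unc5c had levels of 1.07, 0.61, 0.71 and 0.87 on occlusion arrays, against 0.39, 0.14, 0.0040 and 0.67 on control arrays. Control 4 alone lay above an occlusion array. The difference was 0.51 (SE 0.17, 1.43-fold, adjusted p = 0.403), with 0.36 within slide 1, 0.67 within slide 2, and 0.29 without controls 2 and 3. Unc5d, which also binds the adhesion protein Flrt2, differed the other way by -0.82 (SE 0.45), with levels of -4.17, -2.81, -2.02 and -3.46 on occlusion arrays, against -2.40, -2.16, -1.73 and -2.87 on control arrays. A second Unc5d probe gave -0.53 (SE 0.41). Unc5a differed by -0.35 (SE 0.25). Netrin-1 (Ntn1) and its attractive receptor Dcc were well above background on none of the 8 arrays.

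Those 2 belong to the 12 genes that did not pass the filter, with Unc5cl, Sema3a, Sema3c, Efna4, Efna5, Efnb2, Epha2, Nrp2, Plxna4 and Robo3. Just outside the filter was Plxna4, well above background on 2 occlusion arrays and 1 control array, and just inside were Sema3e and Efnb3, on 2 arrays of each group. Of the 51 kept genes, 43 were well above background on all 8 arrays, and 0 had a saturated spot. Ntn4 is on the array under another name and differed by -0.54 (SE 0.35). It was at 0.04 within slide 1, -1.13 within slide 2, and -0.35 without controls 2 and 3. Its probe was well above background on 2 occlusion and 3 control arrays.

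The slides gave the same sign for 31 of the 51 genes, 17 higher and 14 lower within both, and opposite signs for 20. All 12 genes with an unadjusted p under 0.05 had the same sign within both slides. They were picked for their difference over these same arrays, so the shared sign is no separate support for them. The median difference was 0.05 within slide 1 and 0.012 within slide 2, and 36 of 51 genes differed more, in absolute size, within slide 2, which holds controls 2 and 3. For shared signs and for larger slide 2 differences no share over all probes is given, so neither is read as particular to these genes. With the slide as a block in the fit, 13 members had an unadjusted p under 0.05 (25.5%, against 14.2% of all probes in that fit) and 0 passed the test (lowest adjusted p = 0.242). Whether the occlusion effect differs between slides was tested by an interaction term, which 0 of the 51 passed (lowest adjusted p = 0.959). At an unadjusted p under 0.05 there were 6, against 4.31% of all probes. These were Epha1, Sema3d, Ephb6, Slit1, Sema5a and Efnb1. Sema3d, a secreted class 3 semaphorin, differed by -0.90 within slide 1 and by 0.83 within slide 2, which cancel in its pooled difference of -0.03.

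**Figure D4:**
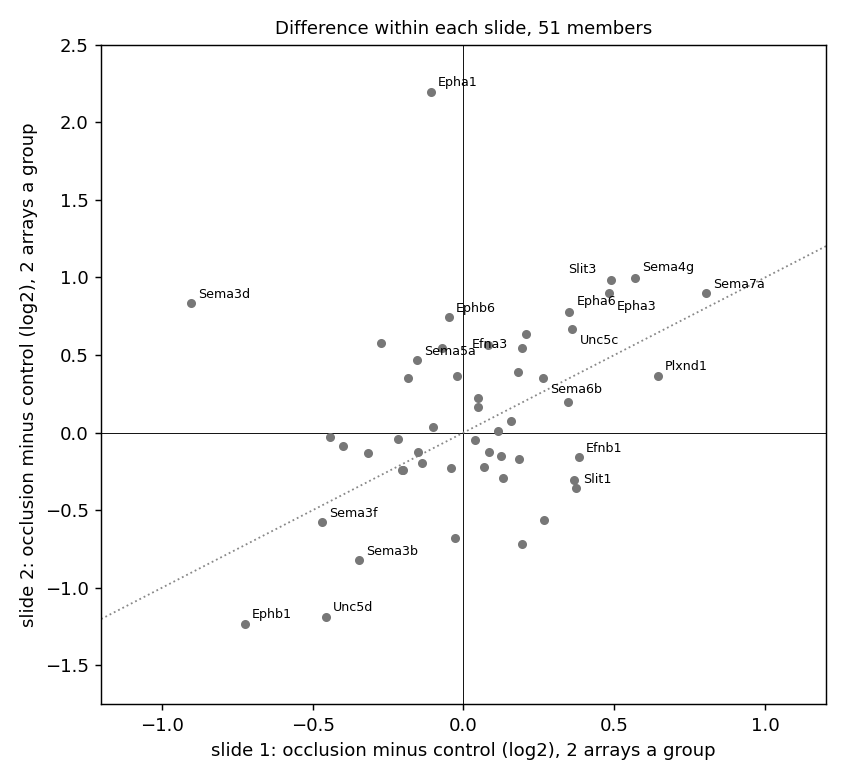
Difference in log2 level, occlusion minus control, within slide 1 (horizontal axis) and slide 2 (vertical axis) for the 51 genes, each from 2 arrays in either group. The dotted line marks equal values, and named points are the 12 genes with an unadjusted p under 0.05, those with an unadjusted slide interaction p under 0.05, and Unc5d. Epha1 lies at -0.11 and 2.20 and Sema3d at -0.90 and 0.83.

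The differences were also set beside the relay markers on each array. Controls 2 and 3, at -0.03 and -0.07 for the relay marker mean, were the lowest arrays for Slit3, at -0.55 and -0.78, and for Unc5c, at 0.14 and 0.0040. They were the highest for Sema3b, at -0.35 and -0.62. Ephb1 was highest on the same 2 arrays, at 0.88 and 0.34. For Sema3f the highest arrays were controls 2 and 1, and for Plxnd1 the lowest were controls 2 and 1. Of the other genes with an unadjusted p under 0.05, Efna3 and Sema6b were also lowest on controls 2 and 3. So was Sema4g, which has no value on control 4. The lowest arrays were controls 3 and 4 for Sema7a and controls 2 and 1 for Epha3 and Epha6. Since the arrays fall apart on the relay marker mean into controls 2 and 3 and the other 6, no correlation is given over all 8.

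**Figure D5:**
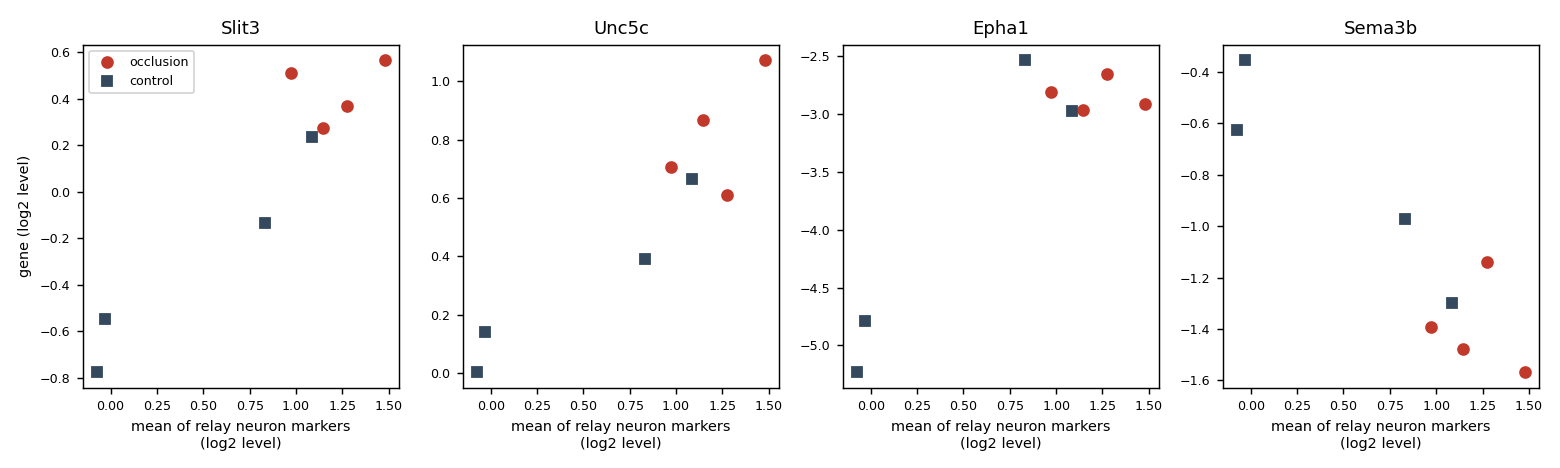
Log2 level of Slit3, Unc5c, Epha1 and Sema3b (vertical axes, own scale in each panel) against the mean log2 level of 10 thalamic relay neuron markers (horizontal axis) on the 4 occlusion arrays (circles) and 4 control arrays (squares). Controls 2 and 3 lie apart at the left, low for Slit3, Unc5c and Epha1 and high for Sema3b. The panels are a selection, and Epha1 is not among the genes with an unadjusted p under 0.05.

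Among co-receptors, adhesion partners and other guidance cues, 27 of 31 genes were kept, 19 with positive differences (median 0.17). At an unadjusted p under 0.05 there were 5 higher and 0 lower (18.5%, against 11.1% of all probes), and none passed the test. Ntng1, or netrin-G1, a lipid-anchored relative of netrins found on thalamocortical axons in the mouse, had levels of 0.45, 0.21, -0.30 and 0.59 on occlusion arrays, against -1.03, -1.32, -1.70 and -0.15 on control arrays, a difference of 1.29 (SE 0.34, adjusted p = 0.403). Control 4 alone lay among the occlusion arrays, and the difference was 0.66 within slide 1, 1.91 within slide 2, and 0.83 without controls 2 and 3. Gpc1, or glypican-1, a heparan sulfate proteoglycan that binds Slits, differed by 0.61 (SE 0.18; 0.43 within slide 1 and 0.80 within slide 2), and Cntn3, a contactin adhesion protein, by 0.67 (SE 0.20; 0.45 within slide 1 and 0.89 within slide 2). One of the 5, Rgma, a ligand of neogenin, was well above background on 4 occlusion arrays and 1 control array, so it entered through the group in which it is higher. With controls 2 and 3 left out, 2 of the 5 stayed under that p, Ntng1 and Rtn4r, the Nogo receptor. Gpc1 was then at 0.35 and Cntn3 at 0.36. Flrt2, at 0.48, was newly under that p, which made 3 of 27, against 4.34% of all probes.

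All 48 cytoplasmic effectors of guidance signalling on the list were kept, 31 with positive differences (median 0.13). At an unadjusted p under 0.05 there were 7 higher and 2 lower (18.8%, against 11.1% of all probes), none of which passed the test. Dpysl5, of the collapsin response mediator family, differed by 0.54 (SE 0.16), Cdk5r1, the activator of the kinase Cdk5, by 0.56 (SE 0.18), and Rhoa, a GTPase that acts on the actin cytoskeleton, by 0.42 (SE 0.14). For each of these 3 genes, and for Gsk3b, all occlusion arrays lay above all control arrays. That is 4 of 48 (8.33%), against 3.9% of all probes that separated upward and 6.72% in either direction. The highest control array was control 4 for Dpysl5, Cdk5r1 and Rhoa. Within slides 1 and 2 the differences were 0.36 and 0.71 for Dpysl5, 0.27 and 0.85 for Cdk5r1, and 0.23 and 0.62 for Rhoa. With controls 2 and 3 left out, 0 of the 9 stayed under that p, and Dpysl5, Cdk5r1 and Rhoa were at 0.30, 0.33 and 0.22. Rock2, at 0.42, was newly under it, 1 of 48, against 4.34% of all probes.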

How the data were processed

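RNA from 8 rat medial thalami was measured, each on its own 1-colour array. Spots were read with Agilent Feature Extraction 9.5.1.1, per the file headers, and the deposited processed intensity is background-subtracted and not normalised between arrays. The value table that the authors deposited holds the same intensity to within 0.497%. The design text speaks of a reference design, but each array was scanned in 1 channel. Probe positions are those of the files (rn3), with no exon annotation used.

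For each array the 75th percentile of log2 intensity over all spots that are no controls was subtracted, outlier-flagged spots were left out and spots of a probe averaged. Kept probes were well above background on at least 4 arrays with at least 2 values a group. Groups were compared with limma 3.58.1 in R 4.3.3 (two-sided, Benjamini-Hochberg over 27161 probes, threshold 0.05), tested on simulated data. The labels number the animals, and replicates were taken as separate animals. The number of arrays limits the precision. Genes outside the rule were named through RefSeq symbols (assembly GRCr8, names only).

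The members, role, pathway and marker lists were chosen with earlier results of these data known. Named are the 3 members of each role group and pathway list with the largest absolute moderated statistic and members whose groups do not overlap, with further genes named after their values were seen. Alternatives were other scalings, normexp (offset 50), other filters, slide and replicate blocks, the value table, the mean over probes, each array left out, and, added later, controls 2 and 3 left out.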

Additional observations from a re-analysis of the deposited data

Results flagged for a closer look

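Epha3 on control replicate 2, at -6.09, lay far from the other control arrays, of which the nearest was at -5.07 and the highest at -4.91. The gap was 0.864 of the range of the 4 arrays, above the critical value of 0.829 of Dixon's test. The probe was not well above background on that array. Of the 47 groups of 4 values tested among the named genes this was the only one, where chance gives about 1 in 20.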

How the results depend on the processing

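No member passed the test under any setting tried, and the lowest adjusted p was 0.139, without control replicate 4. The count of members with positive differences, 28 as reported, ran from 27 to 32 when single arrays were left out and from 22 to 33 otherwise, where the stricter and absent filters change how many genes are counted. The median difference ran from 0.031 to 0.096 when single arrays were left out, and from -0.0089 to 0.11 otherwise. It was negative only without controls 2 and 3. That setting, whose remaining controls both lie on slide 1, also turned the sign of Epha1 (-0.083), Ephb6 (-0.0041) and Robo1 (-0.13), and the cause was not tested. With single arrays left out, Robo1 ran from -0.076 to 0.29, turning without occlusion replicate 4 (-0.0057) and control replicate 3 (-0.076), and Slit2 ran from -0.47 to 0.031, turning without control replicate 2 (0.031). The other 20 named members kept their sign throughout. Members at an unadjusted p under 0.05 numbered 6 without occlusion replicate 1 (11.8%, against 7.53% of all probes), 14 without control replicate 4 (27.5%, against 14.6%) and 4 without controls 2 and 3 (7.84%, against 4.34%). Same-numbered arrays did not all deviate together (correlations of 0.355, 0.514, -0.071 and -0.293 for numbers 1 to 4), and not every array correlated best with its own number, so the numbers were taken to pair no animals. With the replicate block 0 members passed (lowest adjusted p = 0.452), 11 had an unadjusted p under 0.05 (21.6%, against 10.4% of all probes), 28 were positive and the median was 0.030. Dim probes limit Epha3, Sema3e and Efnb3.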
